A study of Mus musculus with 13 samples.

Results

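The genes Papss1, Papss2, Chst11, Extl1, Chsy1, Xylt1, Slc26a2 and Ugdh, which serve the synthesis and sulfation of glycosaminoglycans, were followed through an RNA-seq series of mouse embryonic limb buds. They were taken by symbol as a named list, and all 8 were among the 12880 genes of the deposited table. The list was chosen with earlier results of these data known. Its shares set beside those of all genes are therefore descriptions and no test of enrichment. The series asked whether the transcription factor SOX9 is needed when cartilage starts to form in the limb, and it compared Sox9-deficient with control limb buds at embryonic stages E11.5 and E12.5 (days after conception). Per the file header, the E11.5 controls were Sox9fl/- (3 libraries, so these controls already carried 1 null allele) and the E11.5 mutants, called Sox9null, were Sox9-/- (4 libraries). The E12.5 controls were Sox9fl/fl (3 libraries) and the E12.5 mutants, called Sox9cKO, were Sox9fl/flPrx1CreER (3 libraries). Prx1CreER is an inducible recombinase driven in limb mesenchyme, so other cells of the Sox9cKO limb bud were not its target; the sources used here do not say when it was induced or whether fore- or hindlimb buds were taken. Each library came from a separate embryo, per the header. Values are RPKM, that is reads per length of gene and per depth of library, as normalized by the authors. Because RPKM is per length, levels are set side by side between genes. Such comparisons are only rough, since the gene models behind the lengths are not given.

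Glycosaminoglycans are unbranched sugar chains that are built on proteoglycan core proteins, or, for hyaluronan, without one. A chain starts with a xylose on the core protein, grows by alternating sugars into chondroitin or heparan sulfate, and is then sulfated by enzymes that take sulfate from the activated donor PAPS. Cartilage matrix depends on the dense sulfated chondroitin chains of aggrecan, and loss of sulfate uptake, of PAPS synthesis or of chain sulfation is known to cause skeletal dysplasias. Among the 8 genes, Ugdh makes the uronic acid precursor, Xylt1 adds the first xylose, Chsy1 extends chondroitin chains and Extl1 adds N-acetylglucosamine to heparan sulfate chains. Slc26a2 imports sulfate, Papss1 and Papss2 are the paralogous PAPS synthases, and Chst11 places sulfate on the 4-position of chondroitin.

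Facts of the whole series touch these genes in several ways. Sox9 itself was 20.6 to 25.7 RPKM in Sox9null against 35.8 to 49.3 RPKM in the E11.5 controls, and 28.7 to 35.1 RPKM in Sox9cKO against 35.2 to 37.5 RPKM in the E12.5 controls. In the fit described below, the log2 difference of Sox9 at E11.5 was -0.76 (SE 0.111, limma adjusted p = 0.0360). At E12.5 it was -0.18 (SE 0.118) and did not pass the adjusted p threshold of 0.05. A loss of Sox9 RNA was therefore not detected in Sox9cKO, and how far the gene was deleted there was not tested. The RPKM value covers the whole gene, so it checks the labels only in part where exons outside the deletion are still read. All 9 limb mesenchyme markers were listed, and their summed level lay between 380.5 and 432 RPKM in every library. The 16 listed chondrocyte markers include Sox9 itself and the aggrecan gene Acan, so their sum is not independent of the mutated gene. They summed to 337 to 432 RPKM in the E12.5 controls and 187 to 255 RPKM in Sox9cKO. At E11.5 they summed to 194 to 268 RPKM in controls and 125 to 149 RPKM in Sox9null. Among the E12.5 libraries 0 of the 16 were at 0. The 16 listed erythroid markers went the other way, with 700.2 to 747 against 949 to 1169 RPKM at E12.5 and 882 to 979 against 915 to 1569 RPKM at E11.5. At E11.5 the libraries grouped by likeness into a set of 4 that held controls 1 and 3 with Sox9null 3 and 4, and a set of 3 that held control 2 with Sox9null 1 and 2, with correlations across genes of 0.979 to 0.989 within and 0.938 to 0.966 between the sets. Mean levels of the 4 Y-linked genes were 22.7 to 23.8 RPKM in the E12.5 controls and 23.3 RPKM in Sox9cKO 3, but at most 0.0513 RPKM in Sox9cKO 1 and 2.

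The genes that moved at E12.5 were Extl1 and Chst11, and Papss2 differed by a similar amount as Extl1 but did not pass the threshold. Extl1 (ENSMUSG00000028838) lies on chromosome 4 from 134356372 to 134383850 on the minus strand, Chst11 (ENSMUSG00000034612) on chromosome 10 from 82985498 to 83195900 on the plus strand, and Papss2 (ENSMUSG00000024899) on chromosome 19 from 32595790 to 32667187 on the plus strand, all in GENCODE M21 on GRCm38, the assembly of mm10. The other genes lie apart from these: Papss1 (ENSMUSG00000028032) on chromosome 3 from 131564768 to 131643671, Ugdh (ENSMUSG00000029201) on chromosome 5 from 65413221 to 65435949, and Chsy1 (ENSMUSG00000032640) and Xylt1 (ENSMUSG00000030657) on chromosome 7 from 66109515 to 66173798 and from 117380979 to 117673580. Their RefSeq promoters are shown because these genes rose together in control limbs and had the 3 most negative log2 differences of the list in Sox9cKO. Each sequence is the 250 bases before an annotated start, 5′ to 3′ on the gene's strand, on build GRCm38.p6. Capitals mark a match on either strand to ACAAT, the core letters bound by SOX factors.
Extl1, chr4:134372548-134372797, minus strand: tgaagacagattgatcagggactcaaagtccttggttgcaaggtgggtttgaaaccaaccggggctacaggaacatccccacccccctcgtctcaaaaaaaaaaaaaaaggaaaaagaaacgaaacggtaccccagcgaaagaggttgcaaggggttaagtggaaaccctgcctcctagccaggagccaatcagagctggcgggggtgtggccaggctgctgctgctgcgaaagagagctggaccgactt
Chst11, chr10:82985247-82985496, plus strand: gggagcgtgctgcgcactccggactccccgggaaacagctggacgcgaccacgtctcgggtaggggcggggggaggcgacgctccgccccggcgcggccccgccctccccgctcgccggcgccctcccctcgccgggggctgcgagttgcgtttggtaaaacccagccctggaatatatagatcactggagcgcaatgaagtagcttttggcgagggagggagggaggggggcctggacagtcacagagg
Papss2, chr19:32595465-32595714, plus strand: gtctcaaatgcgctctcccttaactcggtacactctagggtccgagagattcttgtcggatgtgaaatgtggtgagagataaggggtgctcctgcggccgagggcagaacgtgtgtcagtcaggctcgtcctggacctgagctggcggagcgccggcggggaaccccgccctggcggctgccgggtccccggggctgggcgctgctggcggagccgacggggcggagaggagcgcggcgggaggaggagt
Papss2 inner start, chr19:32619755-32620004, plus strand: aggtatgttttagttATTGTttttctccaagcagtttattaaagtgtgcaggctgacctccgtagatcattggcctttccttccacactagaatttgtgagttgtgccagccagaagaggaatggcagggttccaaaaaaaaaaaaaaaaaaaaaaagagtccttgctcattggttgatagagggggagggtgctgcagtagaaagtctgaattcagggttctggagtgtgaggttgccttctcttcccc
The Extl1 window and the inner Papss2 window both lie inside the span of their gene in GENCODE; the last 11 bases of the Extl1 window fall in an annotated exon, and the inner Papss2 window in none. ACAAT occurred 1 time in the inner Papss2 window and not in the other 3 printed, while 27.7% of all 32851 promoter windows of this length held it. The longer form ACAATGG, which contains ACAAT, occurred in none of these 4 windows and in 3.02% of all. A match is only a match of letters, and a window without one says nothing of a factor's binding there or elsewhere. The composition differed more: GC content was 70.0% at Chst11 and 67.6% at the first Papss2 start, against 53.2% at Extl1 and 43.2% at the inner Papss2 start, with a median of 52.4% over all windows. Of the 8 genes, 6 had an entry in the RefSeq table.

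Levels within the list spanned more than an order of magnitude. In the E11.5 controls Papss1 was the highest at 45.7 ± 3.17 RPKM (SD, n = 3), followed by Chsy1 at 35.6 ± 7.71 RPKM, Ugdh at 13.7 ± 0.535 RPKM and Slc26a2 at 11.3 ± 0.545 RPKM. Chst11 at 9.39 ± 0.763 RPKM and Papss2 at 6.74 ± 2.46 RPKM overlapped, as did Papss2 and Xylt1 at 4.54 ± 1.17 RPKM, and Extl1 was the lowest at 1.31 ± 0.304 RPKM. The E12.5 controls kept Papss1 first at 51.2 ± 1.04 RPKM (SD, n = 3), but Papss2 stood next to Chsy1 at 31.3 ± 7.87 RPKM, overlapping its 31.4 ± 1.78 RPKM. Chst11 came after them at 16.2 ± 1.31 RPKM, overlapping Ugdh at 15.9 ± 0.900 RPKM, and Xylt1 at 4.38 ± 0.413 RPKM lay below Extl1 at 6.98 ± 1.52 RPKM without overlap. In Sox9cKO Extl1 was again the lowest of the list at 1.74 ± 0.351 RPKM, below Xylt1 at 3.88 ± 0.169 RPKM. Papss2 at 10.9 ± 3.81 RPKM overlapped both its neighbours there, Slc26a2 at 11.8 ± 0.680 RPKM and Chst11 at 10.9 ± 0.560 RPKM. The order in Sox9null was that of the E11.5 controls, except that Xylt1 at 4.68 ± 1.21 RPKM stood above Papss2 at 4.08 ± 0.603 RPKM with overlapping values.

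**Figure D1:**
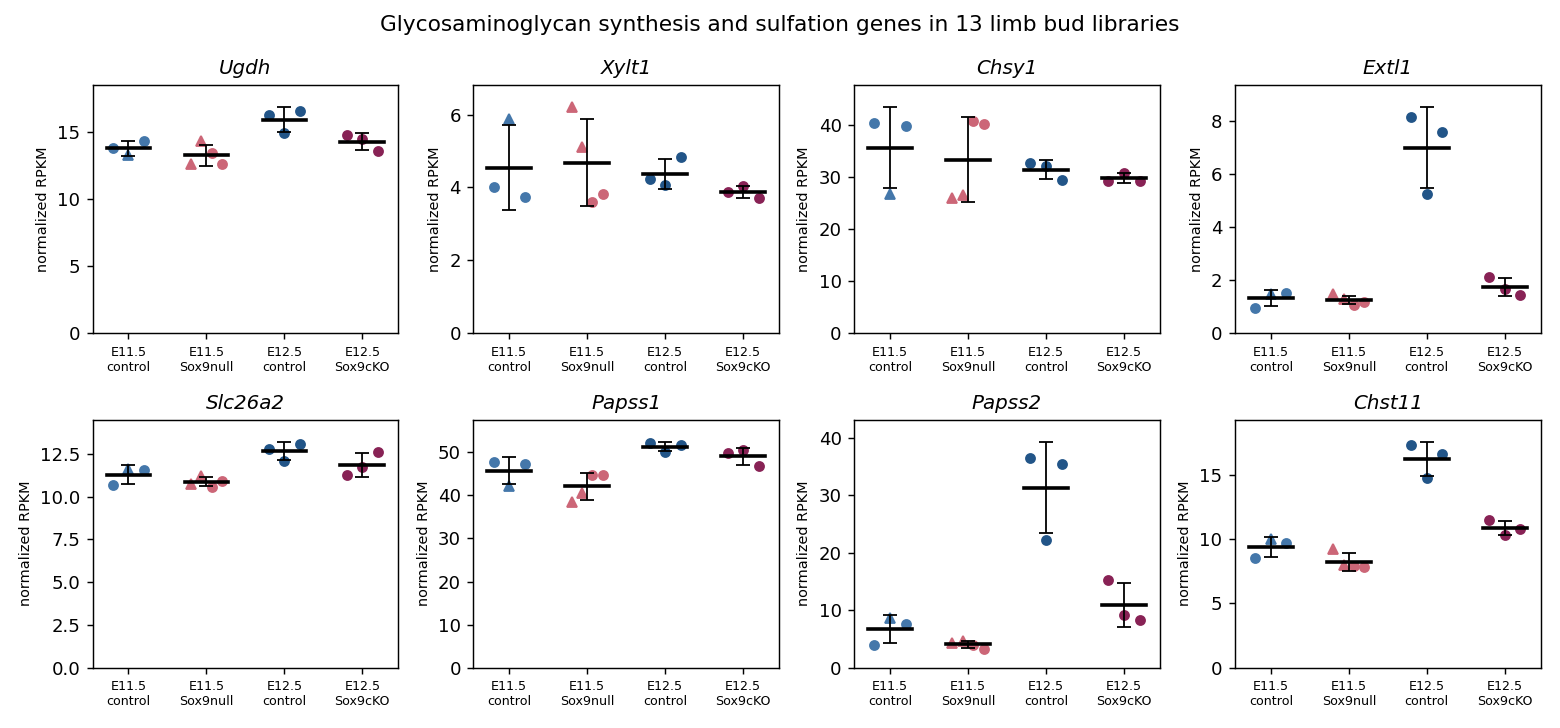
Normalized RPKM (y axis) of each of the 8 genes by library, in 4 groups along the x axis, each with its mean and SD drawn as bars; triangles mark the set of 3. The E12.5 controls stand above the other groups for Extl1, Papss2 and Chst11, while Chsy1 and Xylt1 split by library set at E11.5.

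The E12.5 comparison asked how the conditional Sox9 mutation changed the limb bud when condensations are forming cartilage. Extl1 and Chst11 fell in Sox9cKO, and Papss2 was lower in each mutant library without passing the threshold. The other 5 genes, which supply the sugar precursor, start or extend chains, import sulfate or make most of the PAPS synthase RNA, were within 0.15 of their controls on the log2(RPKM + 1) scale in the fit as reported. A gene was called when its limma p, adjusted by Benjamini-Hochberg over all genes, was under 0.05. By that rule 2 of the 8 genes were called, both lower, and the share called lower over all 12880 genes was 0.14% (0.194% in either direction). All 8 log2 differences were below 0, against 43.2% of all genes (Chsy1 was at 0.082 with a term for embryo sex). Their median was -0.14 against 0.013 over all genes. The libraries hold whole limb buds, so fewer cells of a type and less RNA per cell cannot be told apart.

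Of the genes for precursor and chain start, Ugdh, the UDP-glucose dehydrogenase that yields UDP-glucuronate, had 16.2, 14.9 and 16.6 RPKM in the E12.5 controls and 14.8, 14.4 and 13.5 RPKM in Sox9cKO. The groups did not overlap, but the log2 difference of -0.15 (SE 0.0638) was not called (limma adjusted p = 0.846). Xylt1, a xylosyltransferase, ranged from 4.07 to 4.85 RPKM in controls and from 3.70 to 4.04 RPKM in Sox9cKO, a narrow gap with a log2 difference of -0.14 (95% interval -0.52 to 0.24). It was -0.28 with a term for embryo sex, -0.085 after quantile normalization and -0.078 without control 3, and was called in none of these. Chsy1, the chondroitin synthase, overlapped between groups (29.4 to 32.7 and 29.2 to 30.8 RPKM), with a log2 difference of -0.074 (95% interval -0.48 to 0.34).

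Extl1, an exostosin-like glycosyltransferase of heparan sulfate chains, had 8.13, 5.26 and 7.56 RPKM in the E12.5 controls. Its Sox9cKO values were 2.13, 1.65 and 1.44 RPKM, each below the lowest control. The Sox9cKO mean was 0.249 of the control mean, a log2 difference of -1.53 (SE 0.161, 95% interval -1.88 to -1.18, limma adjusted p = 0.0024). On the log2(RPKM + 1) scale a change at such low levels is understated: with 0.25 in place of 1 the log2 difference was -1.85. The call was made in 20 of 20 alternative analyses that tested the gene. Ext1, the heparan sulfate polymerase gene, had 21.3 ± 0.292 RPKM in controls and 20.7 ± 0.846 RPKM in Sox9cKO (log2 difference -0.043, limma adjusted p = 1).

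Among the genes for sulfate, the transporter gene Slc26a2 (ENSMUSG00000034320, chromosome 18 in GENCODE) overlapped between groups at 12.1 to 13.1 and 11.2 to 12.6 RPKM, a log2 difference of -0.088 (95% interval -0.22 to 0.041). Papss1, the more abundant PAPS synthase, overlapped too, at 50.1 to 52.0 and 46.8 to 50.6 RPKM, with a log2 difference of -0.062 (95% interval -0.21 to 0.089). Papss2, the paralogue known for its role in skeletal growth, had 36.4, 22.2 and 35.3 RPKM in the E12.5 controls and 15.3, 9.21 and 8.32 RPKM in Sox9cKO. Each Sox9cKO library lay below each control, and the Sox9cKO mean was 0.350 of the control mean. The log2 difference was -1.45, but the spread between libraries was wide (SE 0.274, 95% interval -2.05 to -0.85, limma adjusted p = 0.0747). In alternative analyses Papss2 was called in 6 of 21, among them those without control 2, without Sox9cKO 1 and with a term for embryo sex (limma adjusted p from 0.0277 to 0.411 over all 21). The remaining calls came after quantile normalization, with the library set term and without E11.5 control 1. The library set term and the removal of E11.5 control 1 touch E11.5 libraries only and left the log2 difference at -1.45.

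Chst11, the chondroitin 4-sulfotransferase, had 17.3, 14.7 and 16.6 RPKM in the E12.5 controls and 11.45, 10.3 and 10.8 RPKM in Sox9cKO. The groups were apart and each was narrow, so the smaller log2 difference of -0.53 (SE 0.0834, 95% interval -0.72 to -0.35) was called (limma adjusted p = 0.0240). The Sox9cKO mean was 0.671 of the control mean. Without control 1, control 3, Sox9cKO 2 or Sox9cKO 3, and with the replicate number as a block, the log2 difference stayed at -0.49 to -0.53 but the call was lost (limma adjusted p = 0.196, 0.173, 0.141, 0.135 and 0.122). The call was made in 16 of 21 alternatives, among them the fits without an E11.5 library, which leave this difference unchanged.

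Counted by overlap alone, 5 of the 8 genes (Extl1, Papss2, Chst11, Ugdh and Xylt1) were lower in every Sox9cKO library than in every control, where 8.5% of all genes were lower and 20% were apart in either direction. Some libraries were high or low for several of the genes within a group. Control 2 was the lowest of the E12.5 controls for Extl1, Papss2, Chst11, Ugdh, Xylt1, Slc26a2 and Papss1, and it also had the lowest chondrocyte marker sum, 337 RPKM against 419 and 432 RPKM in controls 1 and 3. Among the Sox9cKO libraries, Sox9cKO 1 was the highest for Extl1, Papss2, Chst11 and Ugdh and had the highest chondrocyte marker sum, 255 RPKM against 187 and 216 RPKM. Slc26a2 was instead lowest in Sox9cKO 1, and Papss1, Chsy1 and Xylt1 were highest in Sox9cKO 2. All 16 chondrocyte markers, with Sox9 and Acan among them, were lower in Sox9cKO (4 called). All 16 erythroid markers were higher (2 called). The part of both marker lists in these results was not tested. Sox9cKO 3, whose Y-linked genes matched the controls, had 1.44 RPKM of Extl1, 8.32 RPKM of Papss2 and 10.8 RPKM of Chst11, all below the lowest control. With a term for embryo sex the log2 differences were -1.69 for Extl1, -1.74 for Papss2 and -0.59 for Chst11 (limma adjusted p = 0.00262, 0.0361 and 0.0361). Sex and genotype were nearly aligned at E12.5, so this term leans on Sox9cKO 3 and on the E11.5 libraries.

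**Figure D2:**
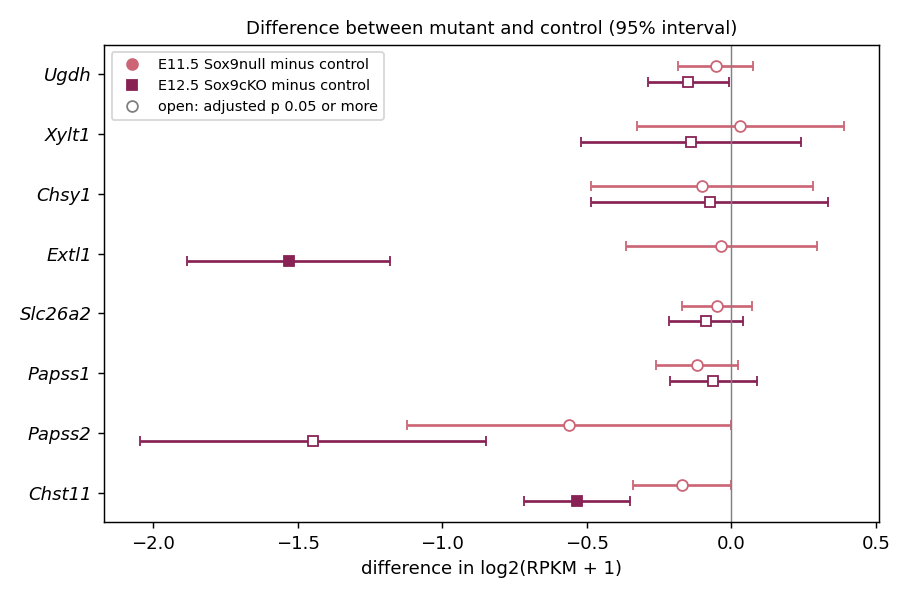
Log2 difference of Sox9-deficient minus control limb buds on the log2(RPKM + 1) scale (x axis) for each of the 8 genes (y axis) at E11.5 and E12.5, with 95% intervals; open symbols have an adjusted p of 0.05 or more. Extl1 at -1.53 and Chst11 at -0.53 at E12.5 are the only filled symbols, and the 5 genes besides these and Papss2 lie close to 0 at both stages.

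The E11.5 comparison put the same question a day earlier, with the null allele. None of the 8 genes was called (limma, 0 of 8, against 0.0543% of all genes), and 2 of the 8, Papss2 and Chst11, had an unadjusted p under 0.05, against 2.82% of all genes. In 0 of 8 genes were the groups apart, against 2.47% of all genes in either direction. The median log2 difference was -0.078, against 0.0097 over all genes. Papss2 had 3.99, 8.72 and 7.53 RPKM in controls and 4.35, 4.68, 4.01 and 3.27 RPKM in Sox9null. All 4 Sox9null libraries lay below controls 2 and 3, while control 1 was within the mutant range. That control also had the lowest chondrocyte marker sum of the E11.5 controls, 194 RPKM against 268 and 234 RPKM. The log2 difference for Papss2 was -0.56 (SE 0.256, 95% interval -1.12 to -0.000834, limma adjusted p = 1). It was -0.85 without control 1 and -0.37 without control 2 (limma adjusted p = 0.736 and 0.956).

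Chst11 had 8.53, 9.98 and 9.66 RPKM in the E11.5 controls and 9.24, 7.99, 7.88 and 7.81 RPKM in Sox9null. Sox9null 1 stood apart from the other mutants and reached into the control range, and the log2 difference was -0.17 (SE 0.0780, limma adjusted p = 1). Extl1 was near its lowest in both groups, with 0.959, 1.47 and 1.50 RPKM in controls and 1.46, 1.27, 1.07 and 1.19 RPKM in Sox9null, a log2 difference of -0.034 (95% interval -0.36 to 0.30). For Papss1, Chsy1, Slc26a2 and Ugdh the log2 differences lay between -0.12 and -0.050, and for Xylt1 it was 0.032. Compared within the library sets, the log2 difference of Papss2 was -0.50 for the set of 4 and -0.82 for the other, and Chst11 by -0.19 in both.

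Chsy1, Xylt1 and Papss1 were separated by library set at E11.5, with controls and mutants together in each set. Chsy1 lay between 39.8 and 40.8 RPKM in the larger set and between 25.9 and 26.7 RPKM in the smaller. Xylt1 was the reverse, with 3.61 to 4.02 RPKM in the larger and 5.11 to 6.19 RPKM in the smaller set. Papss1 was split in the direction of Chsy1, with 44.7 to 47.7 and 38.4 to 42.0 RPKM. The sources used here do not say what the sets are. Within them Chsy1 differed between genotypes by 0.013 and -0.026 on the log2 scale, and Xylt1 by -0.049 and -0.054.

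The genotype effects at E12.5 and E11.5 were then set against each other in the same model. None of the 8 genes was called for this difference of effects (limma, 0 of 8, against 0.0311% of all genes), and 3 of 8 had an unadjusted p under 0.05, against 3.05% of all genes. Extl1 came closest, with an effect more negative by 1.50 on the log2 scale at E12.5 (difference -1.50, SE 0.221; limma adjusted p = 0.0565), and it was called in 5 of 19 alternatives (limma adjusted p from 0.0106 to 0.385). Among these were the fits without E12.5 control 2 and without Sox9cKO 1. For Papss2 the difference was -0.89 (SE 0.375) and for Chst11 -0.36 (SE 0.114), each with a limma adjusted p of 1. The alleles differ between the stages as well, Sox9-/- against Sox9fl/flPrx1CreER, so stage and allele cannot be told apart in this comparison.

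Extl1, Papss2, Chst11 and, by a smaller amount, Ugdh rose in control limb buds between E11.5 and E12.5. In the model 4 of the 8 genes were called, all higher, where 21.7% of all genes were called and 16.5% were called higher. Extl1 rose from 1.31 to 6.98 RPKM, 5.33 times its E11.5 level, or 1.78 on the log2 scale (SE 0.161; limma adjusted p = 0.000152). Papss2 rose from 6.74 to 31.3 RPKM, 4.64 times its E11.5 level, or 2.09 on the log2 scale (SE 0.274; limma adjusted p = 0.000812). Chst11 rose from 9.39 to 16.2 RPKM, a ratio of 1.73 (log2 difference 0.73, SE 0.0834, limma adjusted p = 0.000553). These 3 genes were called in every alternative that tested them. Ugdh rose from 13.7 to 15.9 RPKM (log2 difference 0.19, limma adjusted p = 0.0477), a call made in 7 of 21 alternatives. Papss1 and Slc26a2 were also higher in every E12.5 control than in every E11.5 control, so 6 of 8 genes were apart where 32.6% of all genes were, but their log2 differences of 0.16 and 0.15 were not called (limma adjusted p = 0.109 and 0.0849). Chsy1 and Xylt1 overlapped in range between the stages (log2 differences -0.15 and -0.026). For both, every E12.5 control lay between E11.5 control 2 and E11.5 controls 1 and 3, which fell in different library sets. Chsy1 was at 29.4 to 32.7 RPKM in the E12.5 controls, against 26.7 RPKM in E11.5 control 2 and 40.3 and 39.8 RPKM in E11.5 controls 1 and 3. The median of the 8 was 0.18, against 0.060 over all genes. Markers of several cell types were called higher at E12.5 in the same controls: 11 of 16 for chondrocytes, 8 of 10 for skeletal muscle (summed levels of 54.4 to 90.0 RPKM at E11.5 and 196 to 250.1 RPKM at E12.5) and 8 of 9 for macrophages (39.3 to 45.9 and 66.6 to 80.8 RPKM), and their part in these rises was not tested. The E11.5 controls were Sox9fl/- and the E12.5 controls Sox9fl/fl, so stage and Sox9 gene dose cannot be told apart. The Y-linked genes averaged 20.4 RPKM in 1 of the 3 E11.5 controls and at most 0.0463 RPKM in the other 2, but were high in all 3 E12.5 controls. With a term for embryo sex the log2 differences were 1.94 for Extl1, 2.37 for Papss2 and 0.79 for Chst11, all still called, while Ugdh at 0.21 was not (limma adjusted p = 0.0761).

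Sox9-deficient limb buds showed the stage difference in part. They were Sox9-/- at E11.5 and Sox9fl/flPrx1CreER at E12.5, so stage and allele cannot be told apart in this comparison. Sox9 itself was called higher at E12.5, at 32.0 against 23.5 RPKM (log2 difference 0.43, SE 0.111, limma adjusted p = 0.0214). Among the 8 genes, 3 were called higher at E12.5, where 19.7% of all genes were called and 14.5% were called higher. Papss2 rose from 4.08 to 10.9 RPKM, a ratio of 2.69 (log2 difference 1.20, SE 0.256, limma adjusted p = 0.0104), and Chst11 from 8.23 to 10.9 RPKM, a ratio of 1.32 (log2 difference 0.36, SE 0.0780, limma adjusted p = 0.0104). Papss1 rose from 42.0 to 49.1 RPKM (log2 difference 0.22, limma adjusted p = 0.0348, called in 14 of 21 alternatives). Its Sox9null values were split by library set, at 38.4 and 40.5 RPKM against 44.7 and 44.7 RPKM. Extl1 went from 1.25 to 1.74 RPKM, with overlapping groups and a log2 difference of 0.28 (95% interval -0.048 to 0.61, limma adjusted p = 0.199; -0.22 after quantile normalization). The groups were apart and higher for 4 of 8 genes (Papss2, Chst11, Papss1 and Slc26a2), against 23.7% of all genes. Without Sox9cKO 1 the number called was 0 of 8, with log2 differences of 0.95 for Papss2, 0.33 for Chst11 and 0.21 for Papss1 (limma adjusted p = 0.0505, 0.0518 and 0.114). The median of the 8 was 0.17, against 0.059 over all genes. Whether the stage differences of control and mutant limbs themselves differ is the same test as the difference of effects above, which called none of the 8. Stage comparisons and genotype comparisons share libraries, so their values stand side by side and are not independent.

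**Figure D3:**
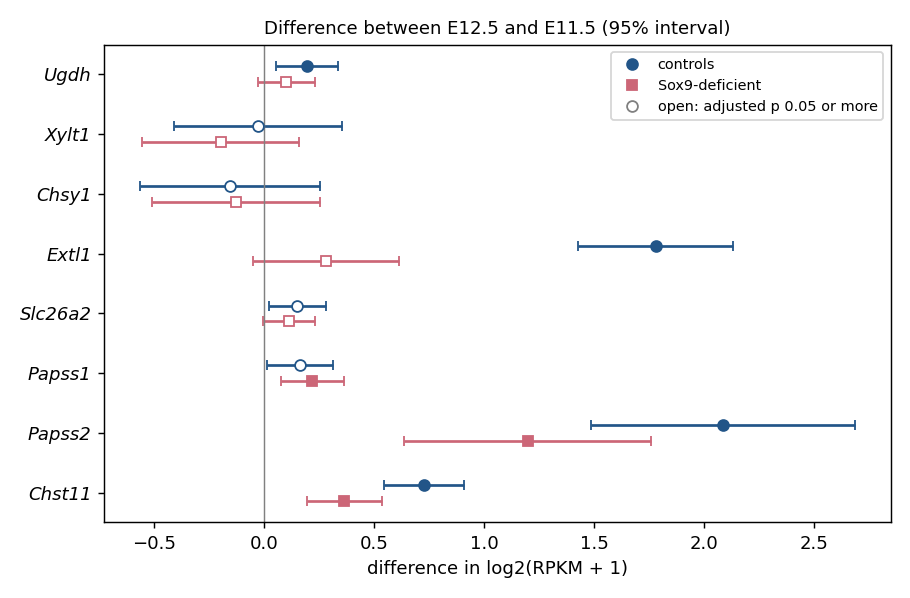
Log2 difference of E12.5 minus E11.5 limb buds on the log2(RPKM + 1) scale (x axis) for each of the 8 genes (y axis), in controls and in Sox9-deficient limb buds, with 95% intervals; open symbols have an adjusted p of 0.05 or more. Papss2 stands at 2.09 in controls and 1.20 in Sox9-deficient limb buds, and Extl1 at 1.78 and 0.28.

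Because Papss1 and Papss2 encode enzymes of the same reaction, the share of Papss2 in their summed RPKM was compared between groups. It was 7.71%, 17.2% and 13.7% in the E11.5 controls and 10.2%, 10.4%, 8.24% and 6.82% in Sox9null. At E12.5 it was 41.1%, 30.8% and 40.6% in controls and 23.5%, 15.4% and 15.1% in Sox9cKO. The groups overlapped at E11.5 and were apart at E12.5, with every Sox9cKO share below every E12.5 control share. Between genotypes an exact permutation test gave p = 0.1 at E12.5 (20 splits) and p = 0.2 at E11.5 (35 splits). With 3 libraries in each group it cannot give a lower p at E12.5, so it cannot decide there. Over all comparisons of genotype and stage its adjusted p ran from 0.114 to 0.2. The E12.5 means were 37.5% ± 5.85 (SD, n = 3) in controls and 18.0% ± 4.77 (SD, n = 3) in Sox9cKO, above the E11.5 means of 12.9% ± 4.79 (SD, n = 3) and 8.90% ± 1.69 (SD, n = 4). The summed RPKM of both genes was 82.6 ± 8.90 in E12.5 controls and 60.0 ± 5.02 in Sox9cKO (SD, n = 3 each). Papss1 made up more of the summed RPKM than Papss2 in all 13 libraries.

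**Figure D4:**
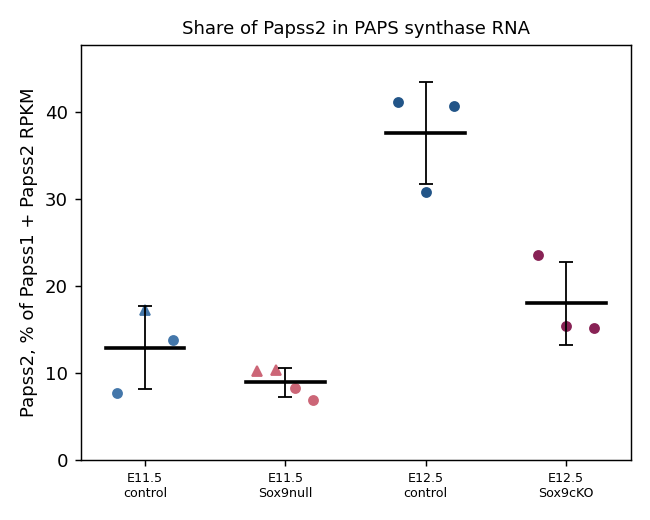
Papss2 as a percentage of the summed RPKM of Papss1 and Papss2 (y axis) by library, in 4 groups along the x axis, each with its mean and SD drawn as bars; triangles mark the set of 3. The E12.5 controls lie between 30.8% and 41.1%, above the Sox9cKO libraries at 15.1% to 23.5%.

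The rest of the pathway was read from lists of its steps, whose 92 genes outside the 8 were each tested in the same fit. At E12.5 a single gene of the 92 was called, Acan, and it was lower. The median log2 difference was -0.039 against 0.013 over all genes, and 68 of 92 were below 0 against 43.2% of all genes. Acan, which encodes aggrecan, the main carrier of chondroitin sulfate in cartilage, had 8.43, 3.25 and 10.5 RPKM in the E12.5 controls and 0.923, 0.0910 and 0.225 RPKM in Sox9cKO (log2 difference -2.50, SE 0.323, limma adjusted p = 0.00726). Control 2 was again the lowest control and Sox9cKO 1 the highest mutant. At E11.5 Acan was at most 0.502 RPKM in every library, and 0 of the 92 were called (limma).

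In the chondroitin and dermatan sulfate list 1 of 14 genes was called at E12.5, Chst11. In that list 13 of 14 log2 differences were below 0, against 43.2% of all genes. Csgalnact1, which starts the chondroitin chain, had the lowest value of the list, 5.67 ± 1.95 RPKM in controls and 3.27 ± 1.15 RPKM in Sox9cKO (SD, n = 3 each), and its -0.63 on the log2 scale was not called (limma adjusted p = 0.617). In the heparan sulfate list 1 of 15 was called, Extl1, followed by the 3-O-sulfotransferase gene Hs3st3a1 at -0.38 (limma adjusted p = 0.299). The sulfate list had 0 of 8 called: after Papss2 came the sulfate transporter gene Slc26a1 at -0.36 (limma adjusted p = 0.399). Precursor sugar supply (0 of 12), the linkage region (0 of 6), keratan sulfate and hyaluronan (0 of 9) and glycosaminoglycan breakdown (0 of 15) had no called gene either, and their medians lay between -0.11 and -0.011. The linkage and precursor lists ran from -0.14 at Xylt1 to 0.053 at B3gat3 and from -0.20 at Gfpt2 to 0.056 at Uap1, respectively. Of the 21 core protein genes, 1 was called, Acan; the chondroitin sulfate proteoglycan gene Cspg4 followed at -0.81 (14.1 ± 1.69 and 7.59 ± 0.356 RPKM, limma adjusted p = 0.309).

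**Figure D5:**
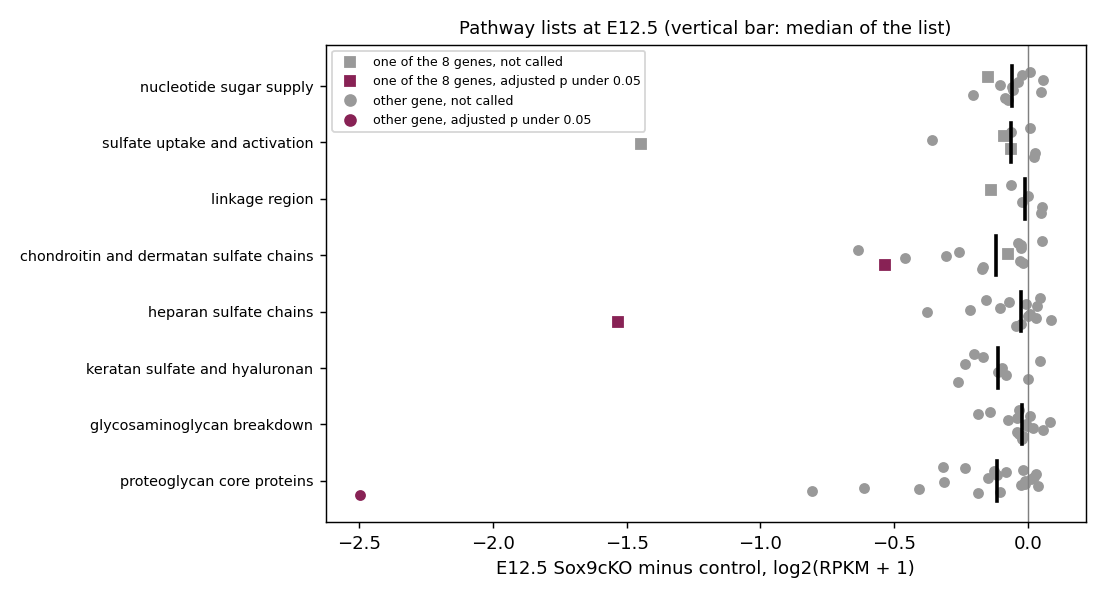
Log2 difference of Sox9cKO minus control at E12.5 on the log2(RPKM + 1) scale (x axis) for each gene of the 8 pathway lists (y axis); squares are the 8 genes, circles other genes of the pathway and vertical bars the median of each list. Most genes lie near 0, and Acan at -2.50, Extl1 at -1.53 and Chst11 at -0.53 are the called ones.

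With stage, 40 of the 92 other genes were called higher in control limbs and 3 lower. Over all genes 16.5% were called higher and 21.7% in either direction, and the median of the 92 was 0.22 against 0.060 over all genes. Chondroitin and dermatan sulfate genes rose in 10 of 14 cases, led by Csgalnact1 (1.28 to 5.67 RPKM, log2 difference 1.50, limma adjusted p = 0.00159) and the chondroitin synthase gene Chsy3 (2.88 to 5.74 RPKM, log2 difference 0.77, limma adjusted p = 0.00544). Heparan sulfate genes rose in 8 of 15, and Sulf2, an extracellular sulfatase that trims heparan sulfate, was the 1 that fell (log2 difference -0.33, limma adjusted p = 0.0012). The linkage list had 1 of 6 called higher, and the precursor list 2 of 12, Ugp2 and Ugdh, both near the 16.5% of all genes. In the Sox9-deficient limbs 26 of the 92 were called higher and 5 lower, where 14.5% of all genes were called higher and 19.7% in either direction. The median of the 92 was 0.14 against 0.059 over all genes. Csgalnact1 rose there from 1.21 to 3.27 RPKM (log2 difference 0.91, limma adjusted p = 0.0160).

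Over the 13 libraries, each gene was matched to the genes whose log2 values ran most like its own. The measure was Pearson's r, given as a description since all libraries share stage, genotype and depth differences. Extl1 was most like Acan (r = 0.982), Chadl (0.975) and Susd5 (0.970). Outside the E12.5 controls Acan was at most 0.923 RPKM and Extl1 at most 2.13 RPKM, so their r rests largely on those controls. Papss2 was most like Nog, the BMP antagonist noggin (r = 0.986), Bcl2 (0.985) and Islr2 (0.984). For Chst11 the closest gene was Papss2 (r = 0.981), ahead of Fam101a (0.981) and Sema3c (0.980). Within the list, Chst11 and Extl1 had r = 0.958 and Papss2 and Extl1 r = 0.942. Slc26a2 and Ugdh were less tightly matched, to Dennd3 (0.918) and Rxra (0.947). Chsy1 and Xylt1 ran against each other (r = -0.73), both being split by library set at E11.5, and Chsy1 had r = -0.28 with Papss2.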

How the data were processed

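Total RNA of whole limb buds was sequenced in 13 libraries, per the labels, prepared with the RNeasy Mini Kit and standard Illumina steps. CASAVA 1.8 and mm10 are named, per the submitters' processing notes; for the aligner, the counting, the use of strand and the gene models, the sources used here give nothing. Per the file headers, the deposited values are normalized RPKM per gene and library, and the authors listed only genes that reach a minimum mean in a group (the lowest such highest group mean was 3.13 RPKM), so genes low throughout are not described. For 6 of the 13 columns the unit of the deposited values was taken from the header and from their likeness to the other 7. Depth per library is not given, and since at most 47.6% of the low values of 391 short genes lay within 0.15 of whole multiples of a step, reads were not recovered and no count model was used. Precision therefore rests on the spread between libraries alone.

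The scale of analysis was log2(RPKM + 1), fitted in limma 3.58.1 (R 4.3.3; trend and robust), with a mean for each of 4 groups over all 13 libraries and two-sided p-values adjusted by Benjamini-Hochberg over 12880 genes; a gene was called under 0.05. A filter of 1 RPKM in at least 3 libraries removed no gene. The script was tested on simulated data. The 8 genes, the pathway and marker lists and the named genes (the 8; genes called in a mutant comparison; the 2 lowest and 2 highest of each list; the 3 most alike genes by Pearson's r, predicted genes left out) were chosen with earlier results of these data known. Alternatives were the pseudocount, a filter of 5 RPKM, quantile normalization, only the groups compared, limma without trend and robust, terms for library set, replicate number and embryo sex, and leaving out each library. Within stages, same-numbered control and mutant libraries correlated from -0.435 to 0.635, so the numbers do not pair them. Coordinates are from GENCODE M21 and promoters from the RefSeq table on GRCm38.p6.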

Additional observations from a re-analysis of the deposited data

Results flagged for a closer look

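Chst11 in the E11.5 Sox9null group had 1 library far from the others: Sox9null 1 was at 9.24 RPKM, against 7.99, 7.88 and 7.81 RPKM in the other 3. Its gap to the nearest library was 0.874 of the group's range, above Dixon's 95% limit for 4 samples, and chance passes that limit in about 1 of 20 groups. Sox9null 2, of the same library set, was at 7.99 RPKM.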

How the results depend on the processing

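Over the alternatives, 756 of 822 values of the 8 genes kept direction and side of the threshold, 28 lost and 15 gained a call, and 23 turned sign; the causes were not tested. Depth per library is unknown and groups hold 3 or 4 libraries, so precision rests on few embryos.

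With the 5 RPKM filter, which leaves out Extl1 and Xylt1, the number of the 8 called was 1 at E12.5 and 2 between control stages. With the replicate block it was 1 at E12.5, and the number over all genes was 16 there and 0 for the difference of effects; the numbers do not pair the libraries, and the block changed no other count by over 1.5 times. For the difference of effects 1 of the 8 was called after quantile normalization, without trend and robust, and with the sex term. Leaving out a library gave 1 to 3 of the 8 at E12.5, 0 to 1 for the difference, 3 to 4 between control stages and 0 to 3 between Sox9-deficient stages.

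Over all genes at E11.5 the number called went from 7 to 0 with the compared groups only, 41 with the library set term and 2 to 8 without a library. At E12.5 it went from 25 to 9 with the filter, 57 after quantile normalization, 105 with the library set term and 9 to 47 without a library. For the difference of effects it went from 4 to 2 with a pseudocount of 0.25, 0 with the filter and 1 to 11 without a library. Between control stages it went from 2794 to 7132 with the library set term and 1381 to 3374 without a library, and between Sox9-deficient stages from 2539 to 924 with the compared groups only, 6675 with the library set term and 708 to 2976 without a library.

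Signs turned mostly at small values. At E11.5 these were Extl1 (0.0036 after quantile normalization, -0.15 to 0.027 without a library), Chsy1 (-0.29 to 0.0048 without a library) and Xylt1 (-0.015 after quantile normalization, -0.051 with the library set term, -0.090 to 0.20 without a library). Chsy1 was at 0.082 with the sex term at E12.5, and its difference of effects was -0.0079 after quantile normalization, -0.072 with the library set term and -0.079 to 0.22 without a library. Xylt1 between control stages was at 0.12 with the sex term and -0.13 to 0.14 without a library. Extl1 between Sox9-deficient stages moved further, from 0.28 to -0.22 after quantile normalization, and was called in neither, so its direction depended on the normalization.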
